A study of Mus musculus with 108 samples.

Results

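The replication-dependent histone genes are the clustered Hist1h, Hist2h, Hist3h and Hist4h genes that supply the histones for newly made DNA. They were chosen by symbol alone, as every row of the count table whose mouse gene symbol begins with Hist1h to Hist4h, and 70 of the 53465 rows met this rule. They comprised 6 H1, 20 H2A, 19 H2B, 12 H3 and 13 H4 genes, 3 of them annotated as pseudogenes, and 56 lay on chromosome 13, 10 on chromosome 3, 3 on chromosome 11 and 1 on chromosome 6. The family was singled out with its levels in these libraries and its E17.5 cortex result already known, so what follows on those 2 points is a description. RNA came from 3 regions, CX (cerebral cortex), HIP (hippocampus) and CB (cerebellum), of wild-type (WT) and Cul3+/- mice at the embryonic stage E17.5, at postnatal day 7 (P7) and in adults at postnatal day 35 (P35), with 6 mice of each genotype at each period and 108 libraries in all. Cul3+/- mice carry a germline 1-bp frameshift insertion in exon 6 of Cul3, made by CRISPR/Cas9 and bred from 1 founder, so every cell of every region is heterozygous, and WT mice share the strain background C57BL/6N (written C56Bl/6N in the labels). Libraries were made from total RNA after removal of ribosomal RNA, with no selection for poly(A) tails. The 2 adult mice whose genotype differs between the sample labels and the quality table of the study were left out, which left 102 libraries and 5 mice of each genotype at P35.

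Histone octamers of H2A, H2B, H3 and H4 wrap the DNA, and the linker histone H1 sits on the DNA between them. Replication-dependent histone mRNAs are made mainly while a cell copies its DNA. They end in a conserved stem-loop in place of a poly(A) tail, the stem-loop-binding protein SLBP escorts them, and they are broken down when replication stops. Replacement variants such as H3.3 come from separate, polyadenylated genes and are also made in cells that no longer divide. In the brain, cortical progenitors that make neurons divide mostly before birth, whereas granule cell precursors of the cerebellum go on dividing in the first weeks after birth.

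The stem-loop and the promoter are shown because they are what the members share beyond their names. In the GENCODE M21 transcript models (GRCm38), a 16-base histone stem-loop was found in 41 of the 70 members, against 47 of 55450 genes in all, so only 6 genes with it were not members. The search took 1 sequence pattern. Some models were short, such as 381 bases in Hist1h2bn and 312 in Hist1h4k, and may leave out the 3′ UTR. The other 29 members can therefore not be said to lack the stem-loop. The loop came in several forms. One form was in 26 members (3 H1, 10 H2A, 8 H2B and 5 H3), another was in 7 members, all of them H4, the third was in 6 members (1 H1, 2 H2B and 3 H3) and the rarest was in 2 H4 members. One example of each is given with 5 flanking bases, where the model holds them, and with the stem-loop in capitals, from Hist1h1e (linker histone, chromosome 13, 23620629 to 23622558, minus strand), Hist1h4n (chromosome 13, 21831767 to 21832196, minus strand), Hist1h2bk (chromosome 13, 22035870 to 22036345, plus strand) and Hist1h4b (chromosome 13, 23757013 to 23757409, plus strand), each lying in the 3′ UTR:
Hist1h1e: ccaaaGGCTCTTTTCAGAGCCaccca
Hist1h4n: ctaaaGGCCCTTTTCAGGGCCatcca
Hist1h2bk: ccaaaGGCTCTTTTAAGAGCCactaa
Hist1h4b: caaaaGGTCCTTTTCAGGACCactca
The models of 16 members ran on for over 300 bases past the stem-loop, up to 4884 bases in Hist1h1d and 2445 bases in Hist4h4, so their counts can hold reads from longer transcripts as well.

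RefSeq promoter windows (GRCm38.p6, 250 bases before to 50 bases after the start of the gene) matched 61 of the 70 members. The letters CCAAT, searched on both strands, were in 52 of these windows (85.2%), against 37.4% of all 32851 windows. All 49 windows of H1, H2A, H2B and H3 members held CCAAT, and 3 of the 12 H4 windows did. The octamer ATTTGCAT, searched on both strands and known as an element of H2B promoters, was in 13 windows (21.3%, against 1.7% of all), 7 of H2A and 6 of H2B members. TATAAA on the strand of the gene was in 30 windows (49.2%, against 8.3% of all), and the H1 box AAACACA, searched on both strands, was in 9 (14.8%, against 7.2% of all), of which 5 belonged to the 6 H1 members. No member had 2 of these matches overlapping, and 18 members had a window that overlapped that of a member on the opposite strand. A match is a description of the letters and not of a bound factor. Promoters of members that were called between genotypes in E17.5 cortex are shown with their matches in capitals, Hist1h1b (chr13:21780576-21780875, minus strand) with CCAAT, the H1 box and TATAAA, Hist1h2bk (chr13:22035571-22035870, plus strand) with CCAAT and the octamer, and Hist1h4n (chr13:21832148-21832447, minus strand) with TATAAA alone:
Hist1h1b: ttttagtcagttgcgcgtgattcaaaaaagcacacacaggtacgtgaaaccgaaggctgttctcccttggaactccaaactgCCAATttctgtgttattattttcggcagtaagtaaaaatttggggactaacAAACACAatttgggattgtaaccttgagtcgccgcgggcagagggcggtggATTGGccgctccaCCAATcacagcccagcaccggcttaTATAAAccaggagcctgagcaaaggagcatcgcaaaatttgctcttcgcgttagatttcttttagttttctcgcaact
Hist1h2bk: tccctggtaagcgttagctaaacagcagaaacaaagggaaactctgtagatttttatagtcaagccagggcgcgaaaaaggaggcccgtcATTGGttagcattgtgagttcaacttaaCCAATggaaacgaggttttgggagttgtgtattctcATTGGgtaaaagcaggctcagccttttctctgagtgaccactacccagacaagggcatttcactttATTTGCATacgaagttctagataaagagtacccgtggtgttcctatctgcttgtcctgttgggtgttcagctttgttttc
Hist1h4n: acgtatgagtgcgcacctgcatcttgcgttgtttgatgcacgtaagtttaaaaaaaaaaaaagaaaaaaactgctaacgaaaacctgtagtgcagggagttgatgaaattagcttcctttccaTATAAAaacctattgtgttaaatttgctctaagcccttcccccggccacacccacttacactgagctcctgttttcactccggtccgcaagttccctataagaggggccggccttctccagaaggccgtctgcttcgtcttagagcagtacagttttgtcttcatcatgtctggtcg

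Library totals ran from 15126114 to 44411282 expected counts. Levels are given as CPM, the reads of a gene scaled to a fixed library size, after TMM scaling over the 102 libraries. Cul3 separated the genotypes in every dataset, with 159.2 CPM in the lowest WT library and 125.6 CPM in the highest Cul3+/- library. Markers of CB and HIP matched the labels. In WT means, En2 was at 85.54 CPM or more in CB and at most 0.489 CPM in CX and HIP, and Prox1 was at 110.2 CPM or more in HIP and at most 49.08 CPM elsewhere. Because the RNA is of whole regions, fewer cells of a type and less RNA per cell cannot be told apart. Replicate libraries came from separate mice.

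Of the 70 members, 63 had a mean level of at least 1 CPM. The other 7 were Hist1h2ao, Hist2h3c1, Hist1h1t, Hist1h2al, Hist1h2aj, Hist1h2ba and Hist1h2aa. Hist1h1t, the H1 of spermatocytes, had a mean of 0.197 CPM, Hist1h2ba, also known from testis, had at most 1 count in any library, and Hist1h2aa had a count of 0 in all 102 libraries. Expected counts of 62 members were not whole in over 10% of the libraries, and those of 55 members in over 90%, since these genes are near copies of each other and share reads. The split of reads between single members of one type is therefore uncertain, whereas a sum over a type is less exposed to it. Hist1h2bq and Hist1h2br show it most plainly. In WT, Hist1h2bq went from a mean of 64.56 CPM in E17.5 CX to 16.32 CPM in P7 CB, where 1 library listed it at 0, and Hist1h2br went from 8.695 to 174.1 CPM. No direction is drawn here from either gene.

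Per kilobase of gene model, the most abundant members over all libraries were Hist1h4h at 458.2 CPM, Hist1h4n at 360.9 CPM, Hist2h2aa2 at 279.3 CPM, Hist1h4f at 194 CPM and Hist1h2bb at 174 CPM per kilobase. In CPM without regard to length, the 10 with the highest mean were Hist1h4h (215.4), Hist1h1e (190.4), Hist1h1c (165.7), Hist1h4n (155.2), Hist2h2aa2 (147.5), Hist1h4d (147.4), Hist1h1d (140.4), Hist1h4c (123), Hist3h2a (103.4) and Hist1h1a (94.96). Of these 10, 4 encode H4, 4 encode H1 and 2 encode H2A. Hist1h1d, whose model is 7425 bases long, came to only 18.92 CPM per kilobase.

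Summed over the 70 members, histone RNA fell after birth in CX and HIP and rose in CB. In E17.5 CX the WT libraries held from 2510 to 7606 summed CPM with a median of 4097. In P7 CX they held from 783.6 to 1312 with a median of 1092. The 5 WT libraries of P35 CX held 465.7, 731.1, 680.5, 625.5 and 704.6. Neither step overlapped, and the mean log2 level dropped by 1.92 ± 0.27 (SE), or 3.79-fold, from E17.5 to P7 and dropped by 0.76 ± 0.16, or 1.69-fold, from P7 to P35. HIP went the same way, from 2855 to 6283 summed CPM (median 3716) in E17.5 WT to between 996.9 and 1601 (median 1436) at P7. At P35 the WT libraries of HIP held 613.5, 624, 730.1, 738.2 and 586.3. The log2 level in HIP dropped by 1.58 ± 0.22 and then dropped by 1.07 ± 0.13, again with no overlap between the groups.

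CB was the exception at P7. The WT libraries rose from between 5075 and 7853 summed CPM (median 5846) at E17.5 to between 9170 and 13450 (median 11490) at P7, a difference of 0.85 ± 0.14 on the log2 scale, or 1.8-fold. They then fell to 1150, 1182, 733.6, 966.9 and 1121 at P35, 11.1-fold below P7. At P7 the level in CB was 10.5-fold that in CX, and no library of one region reached those of the other. At E17.5 the regions overlapped, with 4384 ± 1920 (SD, n = 6) in CX, 4296 ± 1500 in HIP and 6310 ± 1140 in CB. In order of WT means, CB at P7 stood first and apart from all other groups. CB, CX and HIP at E17.5 followed without separating from each other, then came HIP and CX at P7 and CB at P35, whose ranges overlapped, and then HIP and CX at P35, which overlapped each other. The highest library of P35 HIP lay just above the lowest of P35 CB. The Cul3+/- means also had CB at P7 as the highest, but 1 library each of E17.5 CX (9938) and E17.5 HIP (10290) reached into its range of 8655 to 10840. These means were 5330 ± 2610, 1219 ± 84.6 and 641.8 ± 78.4 summed CPM in CX, 5331 ± 2720, 1602 ± 276 and 715.2 ± 39.2 in HIP, and 5171 ± 809, 9600 ± 807 and 1240 ± 64.4 in CB at the 3 periods.

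**Figure D1:**
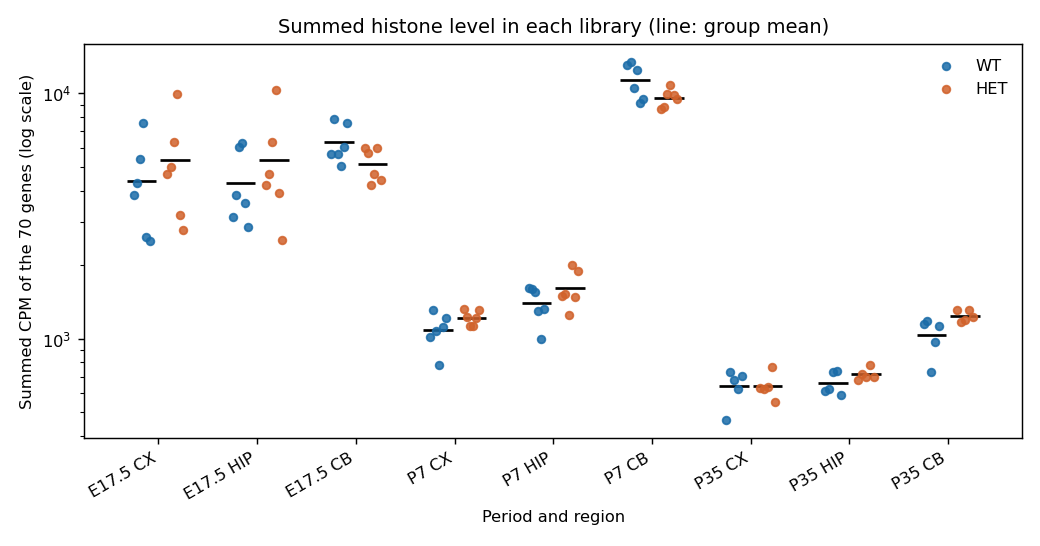
Summed CPM of the 70 histone genes in each of the 102 libraries (log axis), by period and region, with WT and Cul3+/- (HET) as points and group means as lines. The CB libraries at P7 sit between 8655 and 13450, reached elsewhere only by the highest Cul3+/- libraries of E17.5 CX (9938) and HIP (10290), and the forebrain libraries at P35 sit between 465.7 and 781.

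The rise and fall ran through most of the family. From E17.5 to P7, 56 of the 64 members tested in CX lay lower in every P7 WT library than in any E17.5 library, where 28.5% of all 17641 genes tested did. In HIP 55 of 63 did, where 22.8% of all genes did. From P7 to P35 a further 38 of 62 lay lower in CX and 51 of 63 in HIP, against 26% and 27% of all genes, and 2 members lay higher in HIP (25.6% of all genes), Hist2h2be and Hist1h2bc. In CB, 35 of 66 members lay higher at P7 in every library, where 24.7% of all genes did, and 62 of 66 lay lower at P35 than at P7, where 30.6% of all genes did. At P7, 64 of 66 members lay higher in CB than in CX without overlap, where 30.1% of all genes did. At P35, only 16 of 60 lay higher in CB than in CX and 8 lay lower, against 27.7% and 26% of all genes. At E17.5, 0 of 64 members lay apart between HIP and CX in either direction, where 8.69% of all genes lay higher and 7.99% lower in HIP. The family was chosen with these levels known, so the shares describe it and are read no further.

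**Figure D2:**
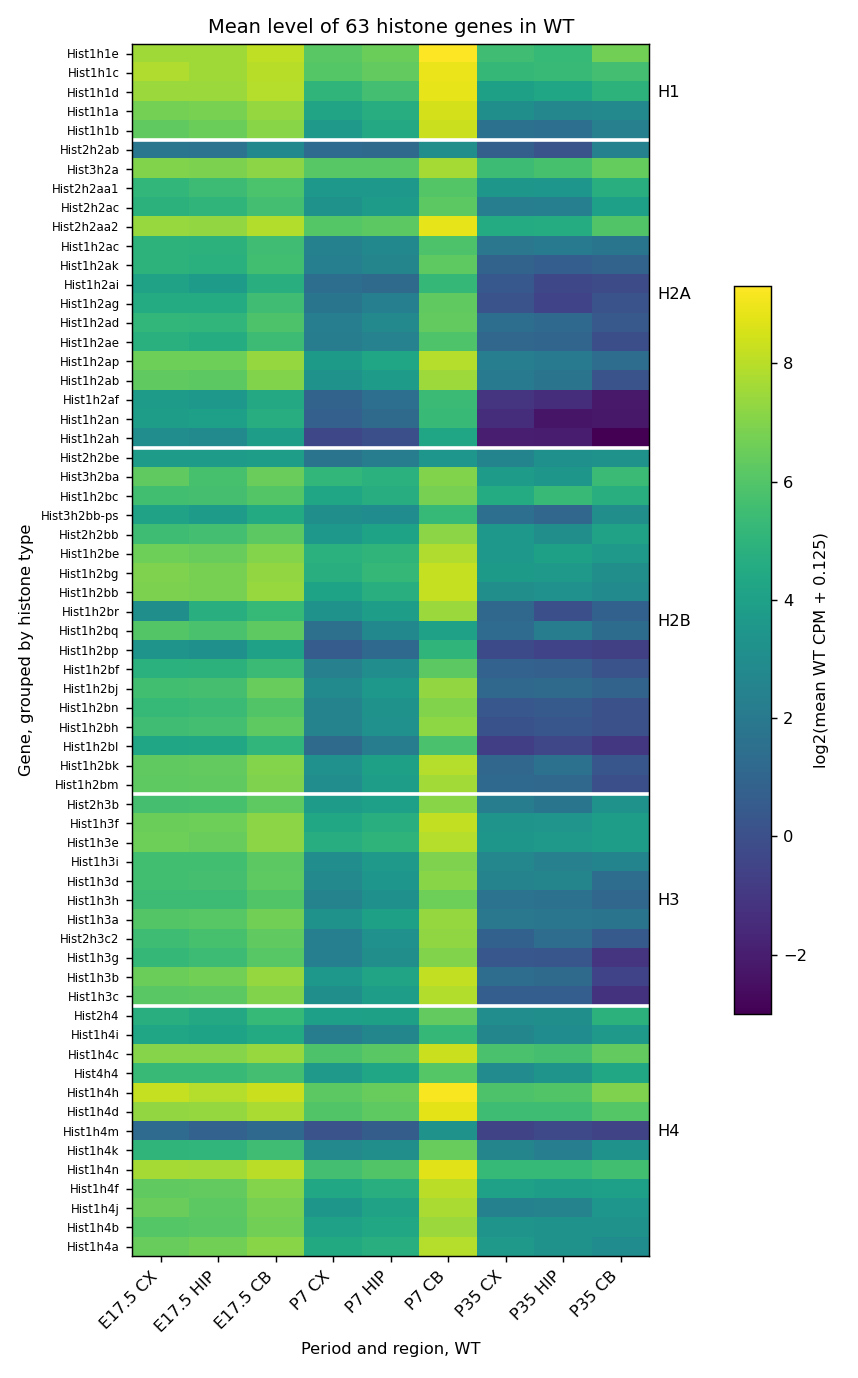
Mean WT level of the 63 members with at least 1 CPM, one row per gene grouped by histone type, in the 9 combinations of period and region. Colour is log2 of the mean CPM plus 0.125. The column of P7 CB is the brightest in most rows, and at P35 the H3 rows and many H2A and H2B rows are darker than the H4 rows.

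The 5 histone types did not fall alike. From E17.5 to P35 the median log2 change in WT CX was -2.3 over 13 H4 members, against -3.69 over 11 H3, -3.84 over 16 H2A, -3.71 over 18 H2B and -3.33 over 5 H1 members. In CB the contrast was wider, with medians of -1.91 for H4, -3.05 for H1, -4.8 for H2B, -4.95 for H3 and -5.27 for H2A. Shares of the summed CPM need not follow these medians. In CB the share of H2A went from 17.6% ± 0.87 at E17.5 to 20% ± 1.2 at P35. The share of H4 was larger at P35 than at E17.5. In CX it made up 29% ± 2.7 (SD, n = 6) of the sum in WT at E17.5, 32.3% ± 1.9 at P7 and 41.7% ± 2.7 (n = 5) at P35. The share of H3 went from 15% ± 2 through 10.9% ± 1.1 to 7.84% ± 1.4. In CB, H4 went from 25.5% ± 1.2 at E17.5 and 25.9% ± 0.9 at P7 to 42.1% ± 1.4 at P35, and H3 from 17.6% ± 0.83 and 17.4% ± 1 to 5.27% ± 0.43, so that no library of either earlier group overlapped those of the adult. These shares stem from CPM and not from molecules, since the models of the types differ in length.

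Single members marked the ends of this range. Hist1h3c, an H3 gene, had 233.2 CPM ± 51.2 in P7 CB WT and between 0.21 and 0.411 CPM in the 5 adult WT libraries, a log2 change of -9.29 ± 0.2 (SE). Hist1h3g and Hist1h3b, also H3 genes, came to 0.322 and 0.579 CPM there, and Hist1h2ah was at 0 in all 5. For the change from P7 to P35 in CB the other end, among members above a mean of 1 CPM, was Hist2h2be (-0.17 ± 0.11), an H2B gene at 3.69 CPM per kilobase. Its WT means in CB were 14.55, 11.02 and 9.9 CPM at E17.5, P7 and P35, a log2 change of -0.56 ± 0.11 over the whole span, over which Hist2h4 (-0.33 ± 0.16) and Hist2h2ab (-0.4 ± 0.31) changed less. In CX and HIP Hist2h2be rose from P7 to P35, from 3.155 to 5.676 and from 4.293 to 8.811 CPM, without overlap in either region (2.721 to 3.697 against 5.034 to 6.442 CPM in CX, and 3.728 to 4.607 against 8.342 to 9.331 CPM in HIP). Hist1h2bc, another H2B gene, rose in HIP from 25.41 ± 1.8 CPM at P7 to 40.54 ± 3.67 at P35, also without overlap. No stem-loop was found in the models of either gene. Hist1h4i, an H4 gene, had 6.178 ± 0.799 CPM in P7 HIP and 7.801 ± 1.04 at P35, and these groups overlapped.

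The median change also varied with what followed the stem-loop. In the 15 members with at least 1 CPM whose models ran over 300 bases past the stem-loop, the median log2 change from E17.5 to P35 was -3 in CX, -2.68 in HIP and -3.29 in CB. In the 23 whose models ended closer to it, the medians were -3.71, -3.74 and -4.99. In the 25 in which no stem-loop was found they were -3.38, -3.8 and -4.57. Several models of these 25 are too short to hold the end of the mRNA, so they are not a class known to lack the stem-loop.

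Replication genes followed a similar order of groups, with their highest level in P7 CB. Mki67, a marker of dividing cells, had WT means of 172.3, 26.63 and 3.789 CPM in CX, 204.6, 43.14 and 4.427 in HIP and 234.5, 349.4 and 1.256 in CB at E17.5, P7 and P35. Mki67 thus fell much further than histone RNA from P7 to P35 in CB. Of genes outside the family, the 10 whose mean log2 CPM was most like the summed histone level over the 9 WT groups were Gas2l3, Mcm5, Spc24, Rfc4, Gart, Fbxo5, Rrm1, Cenpn, Pole3 and Hnrnpf, with Pearson correlations between 0.992 and 0.996 among 14585 genes compared. These 9 points share mice within a period, and P7 CB stands far above the rest. Mcm5, a subunit of the replicative helicase, had 72.47, 100.9 and 10.28 CPM in CB at the 3 periods, and Rrm1, the large subunit of ribonucleotide reductase, had 134.6, 169 and 36.56 CPM. Atoh1, a marker of granule cell precursors, was at 27 CPM in CB at E17.5 and 21.35 CPM at P7 and at 0 in CB at P35. In CX the mean of Atoh1 was at most 0.023 CPM at any period. Summed with the further precursor markers Gli1 and Barhl1, it gave 109.4, 143.9 and 17.67 CPM in CB WT at E17.5, P7 and P35. The sum thus rose to P7, unlike Atoh1 alone.

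Genes that serve histone mRNA and histone protein followed to different degrees. Slbp went from 61.54 and 66.68 CPM in CB at E17.5 and P7 to 29.63 at P35, and from 39.01 through 29.91 to 26.32 in CX. Npat, the activator of histone transcription at the start of S phase, stayed between 28.83 and 46.58 CPM in the 9 WT means. Summed over the 12 histone mRNA factors, WT means ran from 538.2 to 897.7 CPM. Lsm11 of the U7 particle, which cleaves histone pre-mRNA, was the member with the widest range, 359.6 and 415.6 CPM in CX and HIP at P7 against 60.82 to 109.8 in the other 7 groups. Histone chaperones fell with the family, Nasp from 176.8 CPM in E17.5 CX to 20.98 at P35. The replacement variant gene H3f3b, which encodes H3.3, fell less. It went from 773.6 CPM in E17.5 CX to 174.2 at P35, and it was at 1335 CPM in P7 CB and 510 in P35 CB.

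Turning to genotype, histone RNA was higher in Cul3+/- than in WT mice in E17.5 CX once libraries with the same replicate number were compared. Pairing was used there because in this dataset all 6 same-numbered pairs deviated together across the genes. In pairs 1 to 6 the WT libraries held 3867, 4327, 5390, 7606, 2603 and 2510 summed CPM and the Cul3+/- libraries held 4712, 5006, 6364, 9938, 3186 and 2772. The Cul3+/- library was higher in every pair, by 1.22, 1.16, 1.18, 1.31, 1.22 and 1.1 times, although the genotypes overlapped widely. The spread lay between pairs. The names of the mice carry 3 prefixes with 2 pairs each, and their mean summed CPM was 4478 for S2, 7325 for S3 and 2768 for S4. What the prefix stands for is not given in the sources used here.

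In the edgeR quasi-likelihood fit with the replicate number as a block, 21 of 64 members tested passed an adjusted p of 0.1, all higher in Cul3+/-, where 0.331% of all 16594 genes passed in either direction. They were 21 of the 55 genes called, and Cul3 was another. Of the 64, 62 had a positive log2 fold change, with a median of 0.25 (all genes, 0), 55 were higher at an unadjusted p of 0.05 (6.59% of all genes) and 0 were lower (7.89% of all genes). With scaling over these 12 libraries alone, as in the fit, 41 members (64.1%) were higher in all 6 pairs, against 4.6% of all genes, and 0 were lower in all 6. This contrast helped to single out the family, so these counts are not evidence beyond the fit itself.

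Of the members called, 13 encoded H2B, 3 H1, 3 H4, 1 H2A and 1 H3. Hist1h2bk, an H2B gene, had 60.98, 68.31, 107.6, 153.5, 44.49 and 42.1 CPM in WT and 80.94, 94.37, 137.2, 200.3, 54.5 and 52.66 CPM in Cul3+/- in pairs 1 to 6. It was higher in Cul3+/- in every pair while the groups overlapped, and its log2 fold change was 0.35 ± 0.036 (SE, edgeR adjusted p = 0.032). Hist1h1b, a linker histone gene, had 62.52, 69.73, 105.1, 153.8, 38.08 and 43.73 CPM in WT and 83.47, 89.99, 133.7, 199.4, 54.68 and 52.82 CPM in Cul3+/-. It was likewise higher in every pair, by 0.36 ± 0.039 (edgeR adjusted p = 0.0346). The promoters of both are printed above. The other H1 genes called were Hist1h1d (0.27) and Hist1h1a (0.29), and the H4 genes were Hist1h4f (0.34), Hist1h4n (0.26) and Hist1h4a (0.25). The other H2B genes were Hist1h2bh (0.37), Hist1h2bj (0.3), Hist1h2bg (0.26), Hist1h2bb (0.28), Hist1h2bf (0.37), Hist2h2bb (0.3), Hist1h2be (0.3), Hist1h2bp (0.38), Hist1h2bl (0.34), Hist1h2bm (0.27), Hist1h2bc (0.26) and Hist1h2bn (0.3), in log2 units. Hist1h3c (0.3) and Hist1h2ab (0.26) were the H3 and H2A genes called, and adjusted p-values over the 21 ran from 0.032 to 0.0912. By type, the median log2 fold change was 0.3 over 18 H2B, 0.27 over 5 H1, 0.23 over 11 H3 and 13 H4, and 0.22 over 17 H2A members. Hist2h3c2 and Hist1h2ah, an H3 and an H2A gene that the study also labels, were not called. Hist2h3c2 had 24.12, 39.76, 67.88, 98.72, 21.15 and 17.86 CPM in WT and 44.39, 46.03, 70, 129.8, 27.47 and 22.34 CPM in Cul3+/-, higher in every pair on this scale and in 5 of 6 with scaling over the 12 libraries. Hist1h2ah had 4.292, 3.994, 17.67, 15.82, 4.41 and 2.607 CPM in WT and 7.538, 8.895, 12.74, 24.34, 5.346 and 4.213 CPM in Cul3+/-, lower in pair 3 and higher in the other 5.

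**Figure D3:**
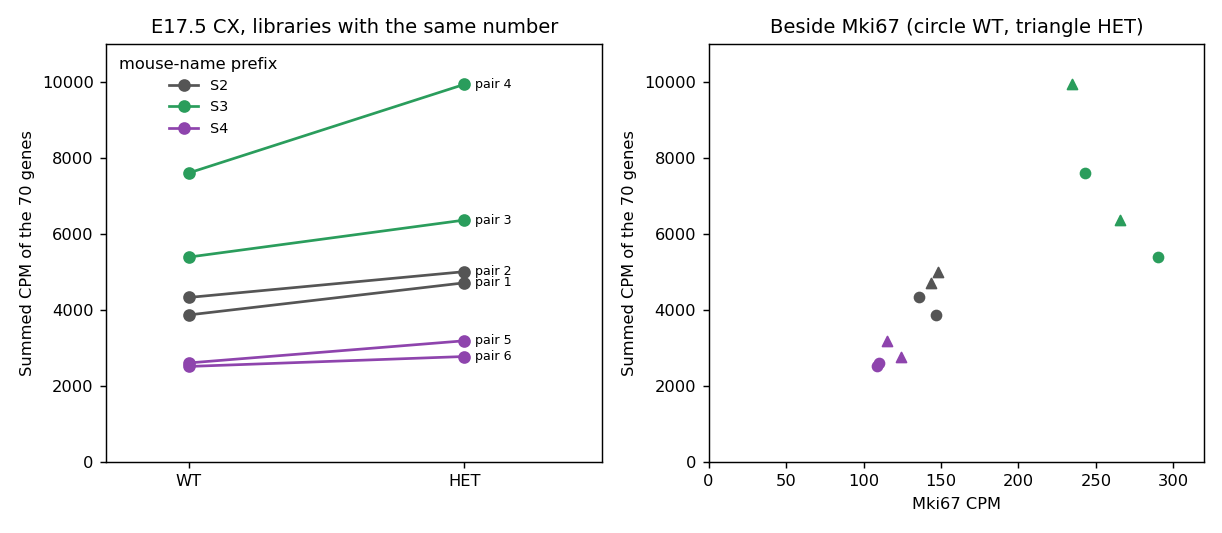
Summed CPM of the 70 genes in the 12 libraries of E17.5 CX. Left, libraries joined by replicate number, coloured by mouse-name prefix, with the Cul3+/- (HET) library above its WT partner in all 6 pairs. Right, the same sums against Mki67 CPM, in which the S4 libraries lie lowest and the S3 libraries highest on both axes.

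These calls rested on the block and on single pairs of libraries. Without the block, 0 of the 64 members passed the edgeR test (smallest adjusted p = 0.991) or an unadjusted p of 0.05, and 63 were positive with a median of 0.27. With the mouse-name prefix as the block, chosen after the data were seen, 0 passed the adjusted p and 33 the unadjusted one. The share of all genes at the unadjusted p was counted only in the main fits, so the 33 has no share beside it. Leaving out any one of WT 2, WT 4, WT 5, Cul3+/- 2, Cul3+/- 4 or Cul3+/- 5 also left 0 called. The smallest edgeR adjusted p in those fits ran from 0.102 to 0.197. A block holds 2 libraries, so leaving out 1 also takes its partner out of the genotype contrast, and these libraries make up pairs 2, 4 and 5. Leaving out each of the other 6 libraries left between 6 and 32. All genes called there ran from 8 of 16688 without Cul3+/- 3 to 462 of 16703 without WT 6. The 32 came without WT 6 or Cul3+/- 6, with 462 and 408 genes called. Over these 12 fits the median of the members was between 0.22 and 0.27, and with RUVs factors it was 0.15.

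Other genes moved with the family across the same libraries. The prefix means of Mki67 were 143.7, 258.1 and 114.4 CPM for S2, S3 and S4, those of the 18 summed replication and cell cycle genes were 970.6, 1608 and 775.3, and those of the 3 summed forebrain progenitor markers were 170.1, 307.9 and 125.1. The 3 neuron markers ran the other way, at 376, 276.8 and 419.5 CPM. Between genotypes, 4 of the 18 replication genes were called, all higher in Cul3+/-, namely the helicase subunits Mcm2 (0.27) and Mcm5 (0.25) and the cyclins Ccna2 (0.24) and Ccnb1 (0.27), and the list had a median of 0.16 with 13 genes higher at an unadjusted p of 0.05. Of 11 replacement variant genes 1 was called, H1f0 (0.23), the linker histone of resting cells. Of 6 chaperones and 12 histone mRNA factors 0 were called, with 4 and 2 higher at an unadjusted p of 0.05. Of the forebrain progenitor markers Sox2, Pax6 and Eomes, all 3 were higher at that unadjusted p and Eomes, which marks intermediate progenitors, was called at 0.3 (edgeR adjusted p = 0.0912). Of 3 blood markers 2 were higher at that level. What part these cell types have in the histone difference was not tested.

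In each of the 8 other datasets 0 members passed the adjusted p by the quasi-likelihood test, and Cul3 was the 1 gene called. That gene was 0.00586% of all genes in E17.5 HIP, 0.00568% in E17.5 CB, 0.00566% in P7 CX, 0.00563% in P7 HIP, 0.0057% in P7 CB, 0.00569% in P35 CX and 0.00584% in P35 HIP and CB. E17.5 HIP, from the same mice, had 2855 to 6283 summed CPM (median 3716) in WT and 2535 to 10290 (median 4449) in Cul3+/-, and 60 of 64 members were positive with a median of 0.28 and 0 higher at an unadjusted p of 0.05 (1.31% of all genes). Without Cul3+/- 4, which held the 10290, the median was 0.01 and 34 were positive. With RUVs factors it was 0.06. With the replicate number as a block, as in E17.5 CX, the median was 0.23 and 28 were higher at the unadjusted p, with 0 called. The share of all genes at that p was not counted for that fit. The smallest p-values in E17.5 HIP belonged to Hist3h2bb-ps (0.27 ± 0.18), Hist4h4 (0.36 ± 0.24) and Hist3h2ba (0.3 ± 0.2), a pseudogene, an H4 and an H2B gene (edgeR adjusted p = 0.941 for each). P7 CX and P7 HIP had 61 and 62 of 64 positive, with medians of 0.17 and 0.23, and 7 in each were higher at the unadjusted p (1.52% and 3.45% of all genes). Leaving out single libraries gave medians of 0.11 to 0.28 in P7 CX and 0.14 to 0.29 in P7 HIP. In P7 CX the 7 became between 3 and 24 as single libraries were left out, with 24 without WT 2. In P7 HIP they became between 0 and 17, with 0 without Cul3+/- 6 and 17 without Cul3+/- 3, and 1 without WT 5, which held the lowest sum. For these fits, too, the share of all genes was not counted, so the counts are not read as results about the members. Structured noncoding RNAs also differed in P7 HIP, where 3 of 3 were higher in Cul3+/- with a median of 0.3, 2 of them at the unadjusted p. Rmrp among them was at 1569 to 2045 CPM in WT and 2151 to 2704 in Cul3+/-. Choroid plexus markers in HIP ran from 14.09 to 4655 summed CPM (median 33.02) in WT and from 29.82 to 344.1 (median 91.87) in Cul3+/- at E17.5, and from 10.87 to 160.6 (median 37.44) and 8.51 to 4189 (median 28.31) at P7. The highest value was that of 1 library at each period, WT 2 at E17.5 and Cul3+/- 1 at P7. At P35 they ran from 22.99 to 2209 (median 60.7) in WT and from 31.87 to 266.1 (median 37.17) in Cul3+/-. The part of these RNAs and markers in the histone values was not tested. The members with the smallest p in P7 CX were the H3 genes Hist2h3c2 (0.43 ± 0.11), Hist1h3c (0.32 ± 0.11) and Hist1h3a (0.34 ± 0.13), each at an edgeR adjusted p of 0.9. In P7 HIP they were the H2A genes Hist1h2ah (0.89 ± 0.36) and Hist2h2ac (0.36 ± 0.15) and the H3 gene Hist2h3b (0.37 ± 0.15), each at an adjusted p of 0.833.

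**Figure D4:**
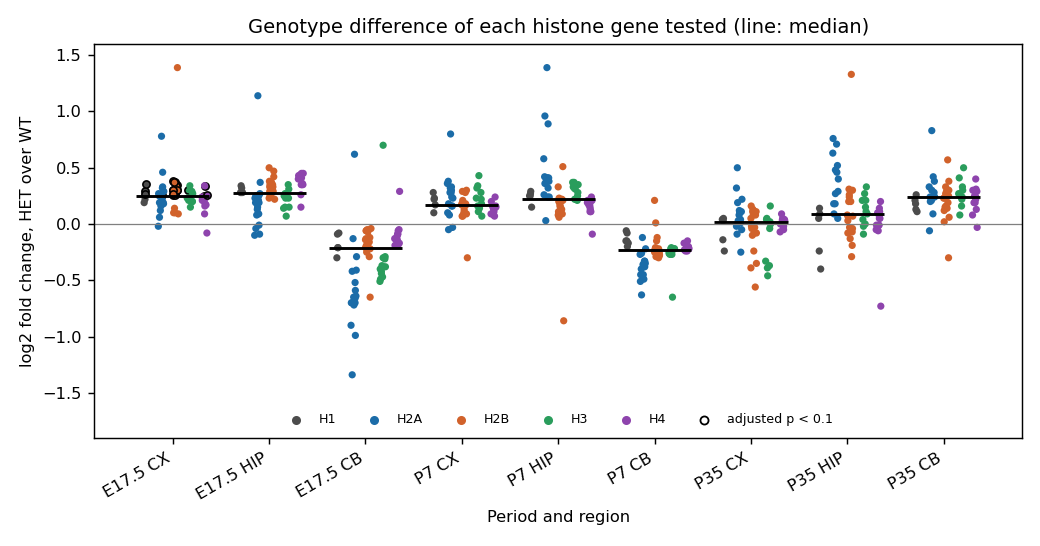
Log2 fold change of Cul3+/- (HET) over WT for each member tested in the 9 datasets, coloured by histone type. Black bars are medians over the members and open rings mark an adjusted p under 0.1. The medians run from -0.23 in P7 CB to 0.28 in E17.5 HIP, and rings appear only in E17.5 CX.

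In CB the medians were below 0 before adulthood. At E17.5 the WT libraries of CB held 5075 to 7853 summed CPM (median 5846) and the Cul3+/- libraries 4250 to 6012 (median 5183), so the groups overlapped. The median of 65 members was -0.21, 62 were negative, and 24 were lower at an unadjusted p of 0.05, where 1.84% of all genes were. These 24 were 14 H2A and 10 H3 genes, and the H2A members had a median of -0.65. Hist1h2ai, an H2A gene, had 16.61 to 43.07 CPM (median 22.42) in WT and 2.343 to 18.42 (median 11.33) in Cul3+/-, with a log2 fold change of -1.34 ± 0.44 (edgeR adjusted p = 0.988). Hist1h2ac, another H2A gene, followed at -0.65 ± 0.22 and Hist1h3h, an H3 gene, at -0.51 ± 0.17. Leaving out 1 library at a time left 11 (without WT 2) to 31 (without WT 4) of the members lower at the unadjusted p, with 14 without WT 6 and 15 without Cul3+/- 3. How many of all genes were lower in those fits was not counted.

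At P7 the CB libraries held 9170 to 13450 summed CPM (median 11490) in WT and 8655 to 10840 (median 9689) in Cul3+/-. The median of 66 members was -0.23, 64 were negative, and 16 were lower at the unadjusted p, where 1.11% of all genes were, 12 of them H2B genes. Hist1h2bk, higher in every pair in E17.5 CX, was at 189.8 to 282.1 CPM (median 247.4) in WT and 177.9 to 217.9 (median 195.4) in Cul3+/- here, with a log2 fold change of -0.27 ± 0.089 (edgeR adjusted p = 0.915). Hist1h2bn (-0.25 ± 0.081) and Hist1h2bc (-0.25 ± 0.082), H2B genes as well, stood beside it. These 3 genes were called higher in E17.5 CX. The count of 16 moved between 7 and 50 as single libraries were left out. It was 7 without WT 1, WT 2, WT 4 or Cul3+/- 6, 10 without Cul3+/- 2 or Cul3+/- 3, 30 without Cul3+/- 4, 34 without WT 6 and 50 without WT 5. How far all genes moved in those fits was not counted, so these counts cannot be read as a result about the family. The replication genes moved less. Their list medians were -0.06 at E17.5 and -0.07 at P7 with 0 of 18 lower at the unadjusted p, and those of the granule cell precursor markers Atoh1, Gli1 and Barhl1 were -0.19 and -0.09 with 0 of 3. Choroid plexus markers differed in P7 CB, where 5 of 5 were higher in Cul3+/- with a median of 1.89, 3 of them at the unadjusted p, and their summed level was 18.17 to 1499 CPM in WT and 27.83 to 2729 in Cul3+/-. In E17.5 CB 4 of 5 were higher, with a median of 0.5. Their part in the histone difference was not tested.

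Base composition was lowest in some of the CB libraries that had the lowest H2A levels at E17.5 and P7. The models of H2A members had a median GC content of 64.2% and those of H3 60.2%, against 54.5% for H1, 55.8% for H2B and 56.2% for H4. As a measure of composition, the median log2 deviation of genes outside the family with models above 60% GC was set against that of genes below 42% GC in each library. In E17.5 CB this was lowest in Cul3+/- 6, at -0.175, where H2A came to 0.591 times H1. The WT libraries there had ratios between 0.963 and 1.15 and Cul3+/- 3, at -0.008 in composition, had 0.682. In P7 CB the measure was lowest in WT 5 (-0.154) and Cul3+/- 1 (-0.113), and their ratios, 0.475 and 0.431, were the lowest of the 12. Other datasets varied. In P35 CB the lowest ratio, 0.819, was in WT 3, the library highest in composition at 0.296. In E17.5 CX the lowest, 0.823, was in WT 2 at 0.045, while composition was lowest in WT 1 (-0.155). In P7 HIP the lowest, 0.668, was in WT 3 at 0.074, which had the highest H1 of the WT libraries (374.4 CPM). The lowest H2A of P7 HIP, 156.7 CPM, was in WT 5, the library lowest in composition (-0.131). In P35 CX, WT 1 was lowest in H2A (66.14 CPM), ratio (0.678) and composition (-0.295). Without the 1 library of E17.5 CB below -0.1, 16 members were lower at the unadjusted p and the median was -0.2. Without the 2 of P7 CB, 50 were lower and the median was -0.28. Shares of all genes were not counted for either fit. The part of base composition in these differences was not tested otherwise.

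**Figure D5:**
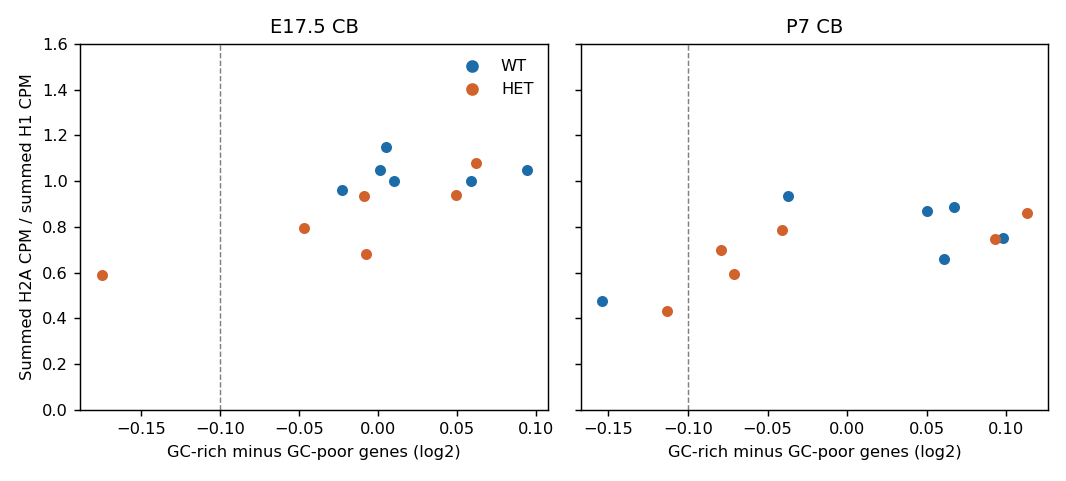
Ratio of summed H2A to summed H1 CPM in each CB library at E17.5 and P7, against the log2 deviation of GC-rich minus GC-poor genes outside the family. The dashed line is at -0.1. The 3 libraries left of the line have ratios of 0.591, 0.475 and 0.431, and the remaining WT libraries at E17.5 lie between 0.963 and 1.15.

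In adults the summed levels of the genotypes overlapped in each region. In P35 CX the Cul3+/- libraries held 628.1, 623.4, 636.4, 768.5 and 552.3 summed CPM, beside the 465.7 to 731.1 of WT, and 34 of 62 members were positive with a median of 0.01. Without WT 1, the lowest library and the one lowest in GC-rich genes (-0.295), the median was -0.11 and 11 were positive. Hist1h2br (-0.56 ± 0.22), Hist1h2bm (-0.39 ± 0.21) and Hist2h3c2 (-0.46 ± 0.28) had the smallest p in P35 CX (edgeR adjusted p = 0.997 for each). In P35 HIP the Cul3+/- libraries held 680.6, 718.6, 697, 781 and 699 against 586.3 to 738.2 in WT, with a median of 0.09 over 60 members and 5 higher and 2 lower at the unadjusted p (3.4% and 2.84% of all genes). Leaving out single libraries gave medians of 0.06 to 0.17 and 2 (without WT 6) to 14 (without WT 3) members higher, with 13 without WT 5 and 3 without WT 1, WT 2, Cul3+/- 2 or Cul3+/- 5. Without WT 2 and WT 6, both low in GC-rich genes, the median was -0.01. The smallest p-values in P35 HIP belonged to Hist3h2ba (0.31 ± 0.084), Hist1h4n (0.2 ± 0.075) and Hist1h3e (0.27 ± 0.11), an H2B, an H4 and an H3 gene (edgeR adjusted p = 0.796 for each). In P35 CB the Cul3+/- libraries held 1311, 1171, 1189, 1303 and 1227, of which 4 lay above every WT library, and 57 of 60 members were positive with a median of 0.24, 8 of them at the unadjusted p (5.71% of all genes). Hist1h2bg (0.27 ± 0.085, edgeR adjusted p = 0.303) had the smallest p there, followed by the H4 genes Hist4h4 (0.4 ± 0.14) and Hist1h4d (0.13 ± 0.048). The lowest WT library of P35 CB, replicate 3 at 733.6, was the highest of that group in GC-rich genes (0.296), and without it the median was 0.12 and 6 members were higher at the unadjusted p. It was 4 without WT 5 or Cul3+/- 5, and 14 without WT 2. For the adult fits other than the main ones, the share of all genes at that p was not counted. With the 2 adult mice that had been left out put back, 12 were higher under the genotype of the labels and 2 under that of the quality table, with medians of 0.21 and 0.18 and 0 called by the edgeR test. The medians became 0.05 and -0.02 in P35 CX and 0.11 and 0.06 in P35 HIP.

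The difference of the genotype effect between regions was tested in limma-voom fits over the 3 regions at once, in which the libraries of a mouse were treated as correlated. Averaged over the regions, 0 members were called at any period, where 0.00537% of all genes were at E17.5, 0.031% at P7 and 0.00525% at P35, and the medians of the members were 0.09, 0.06 and 0.13. The replicate number was not a block in these fits, including the one at E17.5. Leaving out single mice gave medians of -0.02 to 0.19, 0.03 to 0.12 and 0.08 to 0.18, and the -0.02, with 24 of 66 positive, came without Cul3+/- 4. For the genotype effect in CX minus that in CB, 63 of 66 members were positive at E17.5 with a median of 0.53, 1 of them at the unadjusted p (1.84% of all genes). For HIP minus CB at E17.5, 65 of 66 were positive with a median of 0.49 and 0 were higher at the unadjusted p (0.553% of all genes). At P7 the median was 0.44 and 29 of 66 were higher at the unadjusted p, where 2.4% of all genes were, and for HIP minus CB the median was 0.44 and 46 were, where 1.7% of all genes were. After adjustment 0 members passed in any of these contrasts, where 0% of all genes did, with smallest limma adjusted p of 0.889 and 0.819 for CX minus CB at E17.5 and P7. Hist1h2bg, an H2B gene, differed by 0.42 ± 0.14 between CX and CB and by 0.44 ± 0.13 between HIP and CB at P7 (limma adjusted p = 0.819 and 1). Hist1h2bc, called higher in E17.5 CX, differed by 0.45 ± 0.14 between CX and CB at P7. At P35 the medians were -0.19 and -0.11. The contrasts share the CB libraries of a period.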

How the data were processed

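Total RNA of whole CX, HIP and CB was depleted of ribosomal RNA, made into stranded libraries and sequenced in paired ends by the authors. Per the labels and the processing notes of the submitters, reads were trimmed with cutadapt 1.14, aligned to GRCm38.p5 (mm10) with STAR 2.5.3a and quantified with RSEM 1.3. The deposited values are RSEM expected counts per Ensembl gene, which split a read shared by near copies, so that 5.76% of the values had a fractional part. The authors' methods name the mouse Gencode v16 annotation. Library totals of 15126114 to 44411282 set the precision, and the counts carry no molecular identifiers. Groups came from the sample labels.

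Symbols matched all but 191 of 53465 identifiers. Expected counts were rounded to whole numbers. CPM used TMM factors over the 102 libraries, and log2 values a prior count of 2. In each dataset, genes passing a minimum count of 10 and a total of 15 were tested between genotypes by edgeR 4.0.16 (quasi-likelihood, R 4.3.3), with Benjamini-Hochberg adjustment over all genes and a threshold of 0.1. The replicate number was a block in E17.5 CX, where the correlations of same-numbered WT and Cul3+/- libraries were 0.113 to 0.759 in 6 of 6 pairs, against a median of -0.094 for other pairs. In every other dataset some pair fell short of 0.1, with 5 of 6 above it in E17.5 HIP, E17.5 CB and P7 CX. After birth, a replicate number need not stand for the same mouse in each region. WT 5 of P7 CB and WT 5 of P7 HIP, for example, were different mice. Regions were combined in limma 3.58.1, and the differences of the genotype effect between regions were added after the data had been seen. Non-overlap means that every library of one group lay beyond every library of the other. Named members were the 10 with the highest mean CPM, every called member or else the 3 with the smallest p in a dataset, and Hist1h2ah and Hist2h3c2, which the study labels. Other members, and the genes named from the lists, were picked after their values were seen. Members and gene lists were chosen with earlier results of these data known.

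Alternatives were upper-quartile scaling, DESeq2 1.42.0, no count filter, the likelihood ratio test, RUVs factors, Xist as a covariate, other blocks and leaving out libraries. The fits were tested on simulated data. Changes of 0.25 on the log2 scale were recovered in 16.4% of 67 changed genes in E17.5 CX with the block. They were recovered in 28.4% in P7 CB and in P35 CX, and in 47.8% in the 3 regions at P7. Changes of 1 were recovered in 81.8% to 87.9% of the changed genes, with 11 to 19 other genes called. Simulated counts were drawn independently around the fitted means, with no correlation between the regions of a mouse. These rates are therefore not the power for genes that move together across libraries. Stem-loops and gene models came from GENCODE M21 transcripts and promoters from RefSeq.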

Additional observations from a re-analysis of the deposited data

Results flagged for a closer look

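In groups of 5 or 6 libraries, 15 of 288 sets of values held a library whose gap to its nearest neighbour was large for the range of its group by Dixon's test, about as many as chance gives at 1 in 20. They covered 16 quantities, the summed level of the family, the 5 histone types and 10 members.

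P35 CB WT 3 was the lowest of its group for H3 (33.98 CPM, nearest 56.35), Hist1h4h (69.27, nearest 127.4) and Hist1h4n (26.37, nearest 50.57). P7 CX WT 4 was the lowest for H4 (235 CPM, nearest 345), Hist1h4n (31.96, nearest 49.1) and Hist3h2a (49.23, nearest 68.63). P7 HIP WT 5 was the lowest for H2A (156.7 CPM, nearest 237.4) and Hist2h2aa2 (46.83, nearest 74.14). P35 CX Cul3+/- 4 was the highest for H1 (133.2 CPM, nearest 110) and Hist1h1d (22.65, nearest 14.92).

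The other 5 stood alone. P7 CX WT 2 was the highest for H3, at 159.5 CPM (nearest 115.5), and E17.5 HIP WT 4 was the highest for Hist2h2aa2, at 254.1 CPM (nearest 152.3). P35 CX WT 1 was the lowest for Hist1h4h, at 35.58 CPM (nearest 61.07), P35 HIP WT 1 the lowest for Hist1h4c, at 43.03 CPM (nearest 51.37), and P35 CB Cul3+/- 2 the lowest for Hist1h1a, at 6.038 CPM (nearest 8.019).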

How the results depend on the processing

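In E17.5 CX the count of 21 members called became 41 with DESeq2, 32 with no low-count filter, 39 with the edgeR likelihood ratio test, 6 with RUVs factors and 0 with no replicate block or with the mouse-name prefix as the block, and 0 to 32 when 1 library was left out. All 21 were among those called with DESeq2, with no filter, with the likelihood ratio test, with upper-quartile scaling (26) and with Xist as a covariate (28), and 5 of the 21 among those called with RUVs factors. In all genes the 55 calls became 287 with DESeq2, 210 with no filter, 428 with the likelihood ratio test, 384 with RUVs, 166 with Xist and 1 with no replicate block. Elsewhere the 1 gene called became up to 218 with DESeq2 and 150 with the likelihood ratio test (both P35 CB) and up to 195 with RUVs factors (P35 HIP). In P35 HIP 4 members were called with RUVs factors and 0 otherwise. With the replicate block in the 8 other datasets, in none of which every pair passed 0.1, 0 members were called. That block gave 28 members higher at the unadjusted p in E17.5 HIP, 24 in P7 CX and 8 in P7 HIP. It gave 39 lower and 2 higher in E17.5 CB, and 21 lower in P7 CB. In adults it gave 15 higher in P35 CB, 14 higher and 3 lower in P35 HIP, and 1 lower in P35 CX. The share of all genes at that p was not counted in these fits. The remaining 185 checks of the counts, medians and summed levels stayed close to the main value. A median or summed level counted as close when it moved by less than the SD between libraries. No sign was required of the medians, and those of P35 CX and P35 HIP changed sign in some settings above. Of the checks on single members, 361 kept their direction and their side of the threshold, 65 fell short of it and 6 newly passed it. The causes were not tested. Depth limits members below 1 CPM, and shared reads limit single members. Fits of the 3 regions that left out a mouse reused the correlation estimated from all mice.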
